A study of Homo sapiens with 18 samples.

Results

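The genes described here encode proteins of the junctions that hold neighbouring cells together: tight junctions, adherens junctions, desmosomes, gap junctions and the polarity complexes that position them. They form a list of 35 genes named by what their products do. A gene was represented by the array row whose annotation gives exactly its symbol and no other. Of 18377 genes in the series with such a row, 31 are on the list. The only row of OCLN and the only row of CTNND1 name a second gene as well, F11R and MAGI1 matched no row, and these 4 genes were not analysed here. MARVELD2 has 2 rows, and the one with the higher mean was used. JAM3 and GJB2 had mean signals below the filter on low signal (a mean log2 signal of 6.19), which leaves 29 genes in the tests: 11 of tight junctions, 5 of adherens junctions, 8 of desmosomes, 2 of gap junctions and 3 of polarity and scaffold proteins.

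The cells are ECV304, a human line that the labels call endothelial and describe as showing features of both endothelium and epithelium; as background, DNA typing has placed ECV304 stocks with the bladder carcinoma line T24. All 18 samples were confluent, had been kept in 1% serum for 24 h, and received interleukin-1β (IL-1β), an inflammatory cytokine, at 100 IU/ml. In the treated groups aminaphtone, a drug given for capillary disorders, was added at 6 µg/ml for 1, 3 or 6 h, and the control groups got medium in its place for the same times. Each of the 6 groups has 3 arrays, labelled as replicates. All of them come from 1 cell line, and the labels do not say whether replicates were separate cultures of different days, so a p-value reflects only how far these samples lie apart. There are no cells without IL-1β, so time since IL-1β, time in low serum and time in culture cannot be told apart in a difference between times. In RNA from whole cultures, fewer cells of a type and less RNA per cell cannot be told apart either.

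Tight junctions seal the space between epithelial or endothelial cells. Claudins form the paracellular barrier strands, MARVELD2 (tricellulin) closes the corners where cells meet, JAM proteins are immunoglobulin-like adhesion molecules, and TJP1 and TJP3 (the zonula occludens proteins ZO-1 and ZO-3) and CGN (cingulin) link the strands to actin. Adherens junctions join classical cadherins to actin through catenins and vinculin, and desmosomes join desmosomal cadherins to keratin filaments through plakoglobin, plakophilins and desmoplakin. Gap junctions are channels built of connexins, and the PAR complex (PARD3, PARD6B) sets where along the cell border these structures assemble. Inflammatory cytokines are known to alter barrier function in endothelium and epithelium.

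Cell type markers were read against the same filter. All 8 of the epithelial markers with a row lay above the filter, with mean log2 signals of 12.38 for KRT8, 11.75 for KRT18 and 11.36 for KRT7, and so did 7 of 7 urothelial markers. The lowest epithelial markers were CDH1 (6.53) and KRT19 (6.70). The urothelial markers were PPARG (8.64), FOXA1 (7.63), UPK1A (7.19), UPK2 (7.09), UPK1B (6.83), GATA3 (6.65) and UPK3A (6.51). Above the median of annotated rows (7.53) lay 4 epithelial, 2 urothelial, 3 endothelial, 1 fibroblast and 1 leukocyte marker. Of 12 endothelial markers 6 lay above it: ENG (9.20), ESAM (8.82), CLDN5 (7.73), CDH5 (VE-cadherin, 6.99), ICAM2 (6.73) and TIE1 (6.40). PECAM1 (5.30), VWF (6.03), KDR (5.45), TEK (5.30), ERG (5.30) and EMCN (4.57) lay below. Of fibroblast markers 4 of 6 lay above the filter: COL1A1 (7.80), COL3A1 (6.90), COL1A2 (6.87) and PDGFRB (6.68), while DCN (3.80) and LUM (3.14) lay far below it. Of leukocyte markers 3 of 5 lay above it: CD68 (8.65), CD14 (6.90) and ITGAM (6.39). CD3E (5.67) and the pan-leukocyte marker PTPRC (3.63) lay below. Signals are log2 values made by the authors with RMA, and levels of different genes are not set against each other because probes differ.

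The 1 h control arrays differed most among themselves. Arrays of the same group correlated at 0.970 or more in 5 groups and at 0.889 to 0.963 among the controls at 1 h. Replicate 2 of the 1 h controls had the lowest signal of all 18 arrays for 17 of the 29 junction genes tested, against 23.3% of all transcript clusters tested, and the highest for 5 (33.5% of all). Set against the mean of replicates 1 and 3 of its group it was lower for 20 of the 29 genes, by more than 1 log2 unit for 9 of them (7.05% of all). The 9 are DSG2 (a difference of -1.96), CTNNB1 (-1.47), DSP (-1.37), DSC3 (-1.35), TJP1 (-1.26), PARD6B (-1.24), CDH2 (-1.16), PKP4 (-1.14) and VCL (-1.09), while JUP (0.53), TJP3 (0.37), PKP3 (0.35), CDH3 (0.35) and CGN (0.34) were higher on it. The median SD among the 1 h controls was 0.43 log2 units for the junction genes and 0.28 for all transcript clusters tested. The main axis of deviation from the group means (first principal component) held 59.9% of the residual variance over all transcript clusters tested. On it replicates 1, 2 and 3 of the 1 h controls lay at 46.6, -42.5 and -4.09, with replicate 1 opposite to replicate 2. Values without replicate 2 are given beside many, but not all, of the calls and differences that it moved. Some counts without replicate 1 are also given below. The part of these arrays in the results was not tested beyond that.

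**Figure D1:**
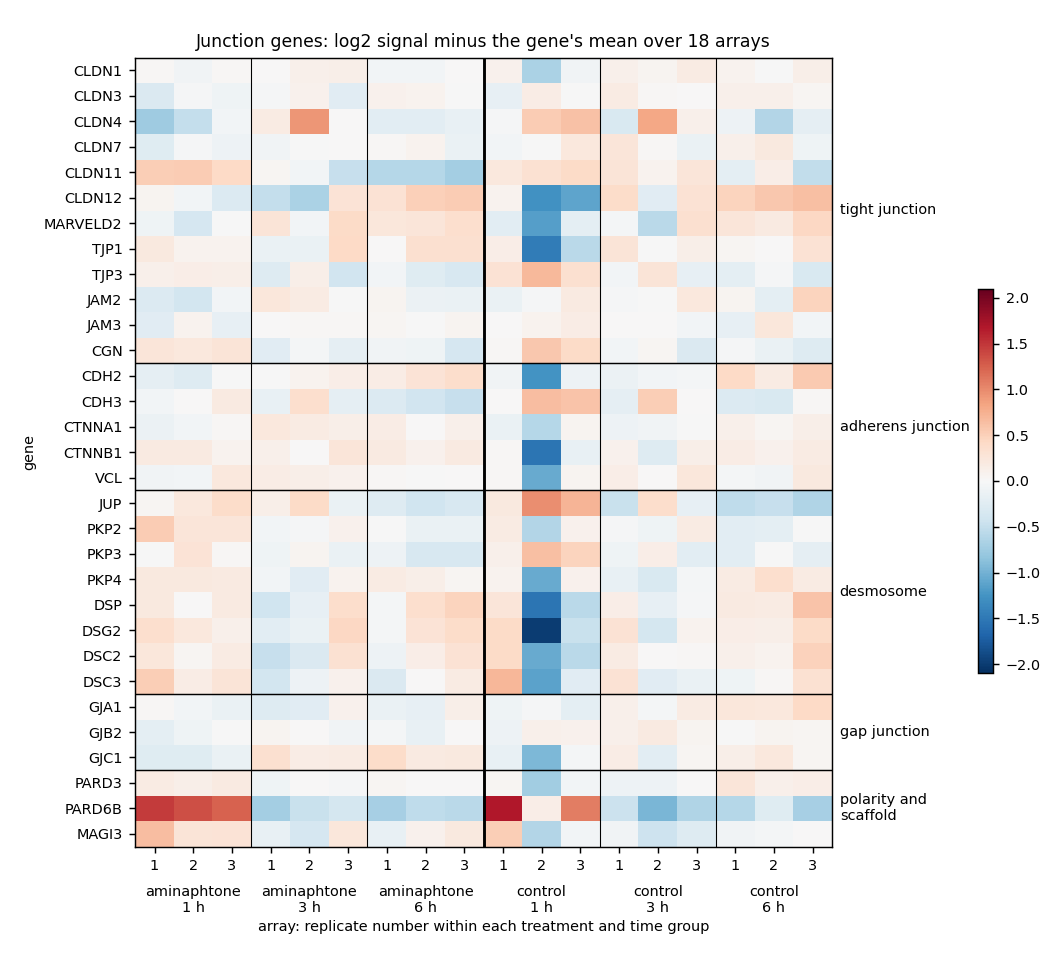
Log2 signal of the 31 junction genes with a row, in rows grouped by junction type, on each of the 18 arrays, in columns, as the difference from the gene's mean over the 18 arrays. PARD6B is highest in the 1 h arrays of both treatments, CLDN11 falls off towards 6 h under aminaphtone, and replicate 2 of the 1 h controls is blue for most adhesion genes, with DSG2 at -1.96 against the other arrays of its group.

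In the fit of all arrays, 3 of the 29 junction genes passed under both treatments at 6 h against 1 h, and 1 at 3 h against 1 h. The share of all transcript clusters passing under both was not counted. These counts depend on the fit. At 6 h against 1 h, 12 passed under aminaphtone (32.9% of all) and 3 in controls (6.89% of all) with only the arrays compared. Without control replicate 2 of 1 h, 8 passed under each treatment (25.4% of all under aminaphtone and 20.7% in controls). Genes passing under both were not counted in those fits. PARD6B, the PAR-6 adaptor that links CDC42 and atypical protein kinase C to PARD3, was lower at 3 and 6 h than at 1 h with and without the drug. CLDN11, a claudin known for the tight junctions of myelin and of Sertoli cells, and CGN, the ZO-binding plaque protein, were also lower at 6 h than at 1 h in both. No junction gene passed the test as higher at a later time under both treatments, although the arrays of GJC1, CDH2, CLDN12 and MARVELD2 at 6 h lay above those at 1 h in each of them. The differences under aminaphtone, none of which passed, were 0.47 for GJC1, 0.43 for CDH2, 0.54 for CLDN12 and 0.43 for MARVELD2.

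With aminaphtone PARD6B had log2 signals of 12.76, 12.64 and 12.53 at 1 h, 10.57, 10.82 and 10.92 at 3 h, and 10.59, 10.76 and 10.73 at 6 h. In control cells the values were 12.96, 11.42 and 12.36 at 1 h, 10.84, 10.33 and 10.66 at 3 h, and 10.69, 11.03 and 10.58 at 6 h. Every 1 h array lay above every later array of its treatment, the low control replicate 2 included. Under aminaphtone PARD6B fell by 1.87 (SE 0.26, 3.66-fold, limma adjusted p = 0.000169) at 3 h against 1 h, and a difference of -1.95 (SE 0.26, 3.87-fold lower, limma adjusted p = 8.24e-05) was found at 6 h against 1 h. In controls the difference was -1.64 (SE 0.26, 3.11-fold lower, limma adjusted p = 0.000561) at 3 h and -1.48 (SE 0.26, 2.79-fold lower, limma adjusted p = 0.000715) at 6 h. Without control replicate 2 of 1 h these 2 control differences were -2.05 and -1.89. In a fit of just the 6 arrays of both groups, the 3 h control difference did not pass (limma adjusted p = 0.0541). Between 3 and 6 h PARD6B differed by -0.08 under aminaphtone and by 0.16 in controls, neither past the test (limma adjusted p = 0.968 and 0.964).

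CLDN11 changed at a different pace. Its signals under aminaphtone were 11.67, 11.69 and 11.58 at 1 h, 11.20, 11.10 and 10.68 at 3 h, and 10.55, 10.56 and 10.44 at 6 h, so that the 3 times did not overlap and followed each other downwards. In controls they were 11.37, 11.47 and 11.56 at 1 h, 11.43, 11.23 and 11.42 at 3 h, and 10.95, 11.30 and 10.65 at 6 h, where the first and second times overlapped and the 6 h arrays lay below those of 1 h. Under aminaphtone CLDN11 fell by 1.13 (SE 0.15, 2.18-fold, limma adjusted p = 8.6e-05) at 6 h against 1 h, and at 3 h against 1 h its difference was -0.65 (limma adjusted p = 0.0101). In controls the difference at 6 h against 1 h was -0.50 (SE 0.15, 1.41-fold, limma adjusted p = 0.0219), and at 3 h it was -0.11 (limma adjusted p = 0.724). The difference between the treatments in the change from 1 to 6 h was -0.63 (95% interval -1.08 to -0.18), which did not pass the test over all transcript clusters (limma adjusted p = 0.398). The control call was lost when control replicate 3 of 6 h was left out (limma adjusted p = 0.135).

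CGN had signals of 7.30, 7.26 and 7.30 at 1 h, 6.805, 7.002 and 6.845 at 3 h and 6.97, 6.95 and 6.69 at 6 h under aminaphtone. In controls they were 7.068, 7.602 and 7.449 at 1 h, 6.97, 7.08 and 6.74 at 3 h and 7.01, 6.89 and 6.76 at 6 h. The 6 h arrays lay below the 1 h arrays in both treatments, narrowly so in controls, where 1 h replicate 1 was the nearest. CGN differed by -0.42 (SE 0.14, limma adjusted p = 0.0439) at 6 h against 1 h under aminaphtone and by -0.48 (SE 0.14, limma adjusted p = 0.0149) in controls. These are small calls: the aminaphtone one held in 6 of 18 fits that each left out 1 array, and the control one in 15 of 18, with an adjusted p of 0.066 without control replicate 2 of 1 h.

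**Figure D2:**
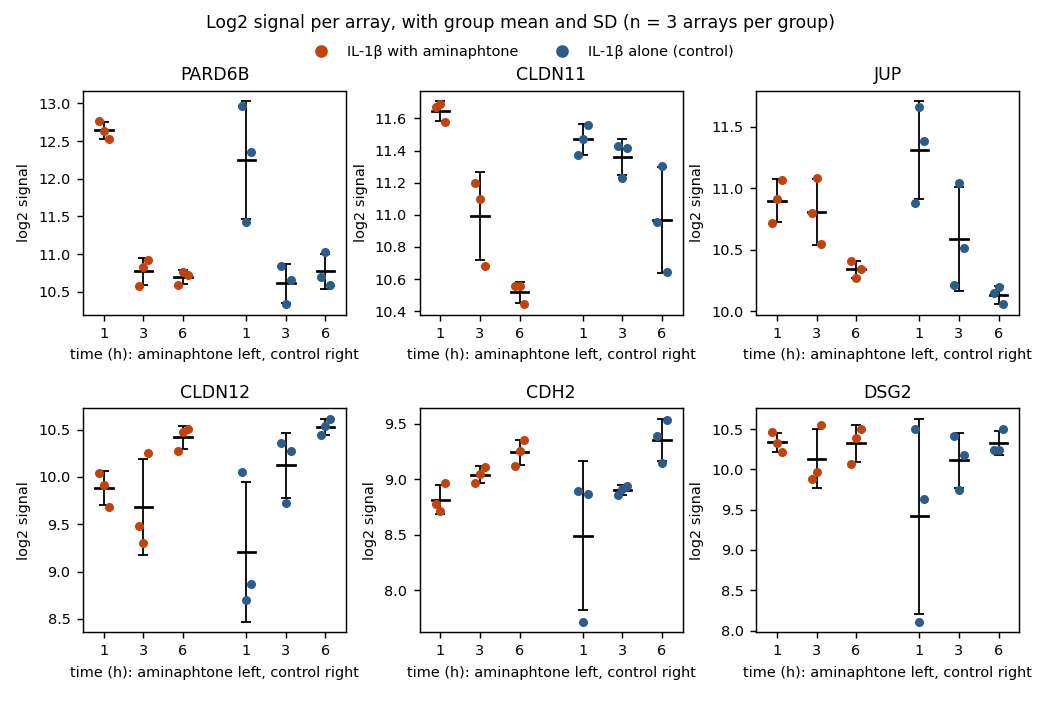
Log2 signal of single junction genes by hours with aminaphtone or, in controls, with medium in its place, each point 1 array, with the group mean and SD (n = 3) as bars. PARD6B steps down between 1 and 3 h in both treatments, and CLDN11 is lowest at 6 h under aminaphtone (10.44 to 10.56).

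Promoter sequences are shown for the genes on which the time course turns, so that their base composition and motifs can be read beside the values: CLDN11 and CGN, lower at 6 h with and without aminaphtone, and JUP and CLDN12, which in controls at 6 h had the largest fall after PARD6B and the largest rise. PARD6B has no entry in the table used. Each is the 250 bases upstream of the RefSeq start in GRCh38.p14, 5′ to 3′ on the gene's own strand, with matches to the GC box GGGCGG on either strand in capitals (matches may overlap by a base).
CLDN11, chr3:170418618-170418867, plus strand: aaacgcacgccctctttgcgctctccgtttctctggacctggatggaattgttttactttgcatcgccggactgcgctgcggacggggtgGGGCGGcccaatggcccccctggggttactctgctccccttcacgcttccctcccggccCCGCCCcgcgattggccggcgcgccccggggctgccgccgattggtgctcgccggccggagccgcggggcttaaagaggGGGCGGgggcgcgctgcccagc
CGN, chr1:151511137-151511386, plus strand: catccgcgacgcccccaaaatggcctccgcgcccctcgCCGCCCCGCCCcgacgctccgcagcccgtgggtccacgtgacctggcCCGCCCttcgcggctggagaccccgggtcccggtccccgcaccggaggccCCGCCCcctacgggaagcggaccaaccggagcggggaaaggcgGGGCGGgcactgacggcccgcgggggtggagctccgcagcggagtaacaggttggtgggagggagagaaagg
JUP, chr17:41786712-41786961, minus strand: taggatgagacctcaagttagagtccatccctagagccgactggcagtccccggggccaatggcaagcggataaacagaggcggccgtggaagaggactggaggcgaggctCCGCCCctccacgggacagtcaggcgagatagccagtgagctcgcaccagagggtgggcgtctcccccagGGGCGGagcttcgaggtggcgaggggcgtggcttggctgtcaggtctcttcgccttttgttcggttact
CLDN12, chr7:90403211-90403460, plus strand: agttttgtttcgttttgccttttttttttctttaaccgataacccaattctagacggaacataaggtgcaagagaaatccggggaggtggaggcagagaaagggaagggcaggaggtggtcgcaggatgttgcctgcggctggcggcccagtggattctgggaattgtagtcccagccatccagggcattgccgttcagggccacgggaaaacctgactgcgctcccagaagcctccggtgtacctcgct

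The 3 printed genes that fell have G and C at 71.2% of bases (CLDN11), 76.0% (CGN) and 63.6% (JUP), with 3, 5 and 2 GC boxes. CLDN12, the only printed gene that rose, has 54.4% and no GC box. Promoters of the other genes that rose are not shown. Base composition was not compared between genes that rose and genes that fell. The median over all promoters of the table is 58.0%. Of the 29 junction genes tested 22 have an entry, and 18 of these 22 hold a GC box, against 42.3% of 27305 promoters. The 27305 were not filtered by signal as the 22 were, so the sets are unlike. The other motifs searched on both strands were AP-1 (TGANTCA, in 2 of the 22 and 6.6% of all), CRE (TGACGTCA, in 0 and 1.77%), the E-box bound by SNAI1 (CAGGTG, in 4 and 17.5%) and the TATA box (TATAAA, in 0 and 11.1%). None of these 4 is in the printed windows. A match describes letters in a window and is no evidence of binding.

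Under aminaphtone the junction genes that passed all fell. At 6 h against 1 h there were 3 of 29 (CLDN11, CGN and PARD6B), when 16.7% of all transcript clusters passed (6.01% higher, 10.7% lower). At 3 h against 1 h there were 2, both lower (CLDN11 and PARD6B), when 10.5% of all passed (5.09% higher, 5.45% lower). Between 3 and 6 h 0 passed (0.266% of all in limma; 3, against 9.82% of all, at an unadjusted p under 0.05), with the smallest p for CLDN11 (-0.48), CLDN12 (0.74) and JUP (-0.47), at limma adjusted p = 0.235, 0.366 and 0.444. These counts rest on a spread shared by all 18 arrays: at 6 h against 1 h 7 passed without control replicate 1 of 1 h (23.7% of all) and 8 without control replicate 2 of 1 h (25.4% of all). At 3 h against 1 h the counts were 4 and 5 (16.7% of all in either fit), and 1 without aminaphtone replicate 3 of 3 h (9.24% of all).

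Several further genes came near the threshold under aminaphtone without passing. JUP (plakoglobin) had 10.41, 10.27 and 10.34 in aminaphtone cells at 6 h, against 10.72, 10.91 and 11.07 at 1 h, which do not overlap, a difference of -0.56 (limma adjusted p = 0.0717). PKP3, a plakophilin, differed by -0.37 (limma adjusted p = 0.0825), PKP2, the plakophilin of simple epithelium and heart, by -0.45 (limma adjusted p = 0.0693), and GJC1 by 0.47 (limma adjusted p = 0.0786). Further from it, CLDN12 had 10.27, 10.47 and 10.51 at 6 h, against 10.04, 9.92 and 9.68 at 1 h, a difference of 0.54 (limma adjusted p = 0.232). GJA1 had 6.39, 6.37 and 6.66 at 6 h, against 6.55, 6.48 and 6.40 at 1 h, which overlap, a difference of -0.0024 (95% interval -0.25 to 0.25).

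In control cells the junction genes that passed between 1 and 6 h moved in both directions. Of the 29 tested, 15 passed the test, 8 higher and 7 lower at 6 h, when 26.5% of all transcript clusters passed (11.3% higher and 15.2% lower). The count was 23 without control replicate 1 of 1 h (44.8% of all), 9 without control replicate 1 of 6 h (19.6% of all) and 7 without control replicate 3 of 6 h (16.4% of all). Fitted to only the 6 arrays compared, 3 passed (6.89% of all). Without control replicate 2 of 1 h, 8 passed (3 higher, 5 lower; 20.7% of all, 7.79% higher and 13% lower). The median difference over the 29 genes was 0.31, against -0.01 over all transcript clusters tested, and without that array it was 0.07 against 0.02.

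Among tight junction genes 3 rose and 3 fell. CLDN12, a claudin that lacks the usual PDZ-binding tail, had signals of 10.44, 10.54 and 10.61 in controls at 6 h, against 10.06, 8.70 and 8.87 at 1 h. All 6 h arrays lay above all 1 h arrays, of which replicates 2 and 3 were the low ones. The difference was 1.32 (SE 0.29, 2.50-fold, limma adjusted p = 0.00334), and 1.07 without control replicate 2 of 1 h. MARVELD2 differed by 0.82 (limma adjusted p = 0.0162) and TJP1 by 0.75 (limma adjusted p = 0.0495), but without that array they differed by 0.50 and 0.33 and neither passed (limma adjusted p = 0.0849 and 0.271). TJP3 had 7.62, 7.80 and 7.51 at 6 h, against 8.13, 8.51 and 8.17 at 1 h, with no overlap, a difference of -0.62 (SE 0.15, limma adjusted p = 0.00674). Without control replicate 2 of 1 h the TJP3 difference was -0.50 (limma adjusted p = 0.0311). CLDN11 and CGN are the other 2 that fell.

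For the adherens junction, CDH2 (N-cadherin) rose and CDH3 (P-cadherin) fell. CDH2 had 9.38, 9.15 and 9.53 in controls at 6 h, against 8.89, 7.72 and 8.86 at 1 h, with the 1 h replicate 2 more than a log2 unit below its group. The difference was 0.86 (SE 0.22, limma adjusted p = 0.00818) with that array and 0.48 (limma adjusted p = 0.00915) without it. CDH3 had 6.78, 6.75 and 7.08 at 6 h, against 7.08, 7.72 and 7.67 at 1 h. Its difference of -0.61 (limma adjusted p = 0.0291) did not pass without control replicate 2 of 1 h (limma adjusted p = 0.112). CTNNA1, CTNNB1 and VCL, which tether cadherins to actin, differed by 0.31, 0.69 and 0.35 and did not pass. They differed by 0.12, 0.20 and -0.012 without control replicate 2 of 1 h, so that VCL turned negative.

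Of the 8 desmosomal genes 2 fell and 1 rose in controls. Those that fell are the plaque proteins JUP (plakoglobin, shared with adherens junctions) and PKP3 (a plakophilin), and the one that rose is DSP (desmoplakin, the keratin anchor). JUP had 10.15, 10.20 and 10.06 in controls at 6 h, against 10.88, 11.66 and 11.39 at 1 h, a difference of -1.18 (SE 0.20, 2.26-fold, limma adjusted p = 0.000637), and -1.001 without control replicate 2 of 1 h. No 6 h array came near a 1 h array. PKP3 had 7.57, 7.79 and 7.62 at 6 h, against 7.91, 8.43 and 8.26 at 1 h, a difference of -0.54 (limma adjusted p = 0.00903). The PKP3 difference was -0.43 (limma adjusted p = 0.0404) without control replicate 2 of 1 h. DSP differed by 0.93 (limma adjusted p = 0.0341), with values of 9.15, 9.14 and 9.57 at 6 h against 9.22, 7.44 and 8.40 at 1 h, which overlap, and without control replicate 2 of 1 h it differed by 0.47 and did not pass (limma adjusted p = 0.189). The desmosomal cadherins DSG2, DSC2 and DSC3 differed by 0.91, 0.63 and 0.31 and did not pass. These differences were 0.26, 0.30 and -0.14 without control replicate 2 of 1 h, so that DSC3 turned negative. DSG2 shows the spread behind that: 10.24, 10.24 and 10.50 at 6 h, against 10.51, 8.11 and 9.64 at 1 h. CDH2, DSC3 and DSC2 are neighbouring genes on chromosome 18 in RefSeq.

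Both gap junction genes tested were higher in controls at 6 h. GJA1 (the connexin found in most tissues) had 6.78, 6.76 and 6.96 at 6 h, against 6.45, 6.50 and 6.32 at 1 h, a difference of 0.41 (SE 0.12, limma adjusted p = 0.0188), and 0.44 without control replicate 2 of 1 h. The 6 h arrays all lay above those of 1 h, at signals close to the filter. GJC1 (a connexin of smooth muscle and heart) differed by 0.50 (limma adjusted p = 0.0438), and by 0.22 without that array, where it did not pass (limma adjusted p = 0.215). In the polarity group PARD3 differed by 0.41 (limma adjusted p = 0.0429), which also failed without that array (0.17, limma adjusted p = 0.181), while PARD6B fell as given above. CLDN12, TJP3, CDH2, JUP, PKP3 and PARD6B passed at 6 h against 1 h in each of the 18 fits that left out 1 array. In a fit of just the 6 arrays of these groups, CLDN12, JUP and PARD6B still passed, and TJP3, CDH2 and PKP3 did not (limma adjusted p = 0.0621, 0.12 and 0.0999).

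Some of these genes also passed in controls at 3 h. Of the 29 genes 5 passed at 3 h against 1 h, 1 higher and 4 lower, when 12.8% of all transcript clusters passed (4.81% higher, 7.98% lower). They were CLDN12 (0.91, limma adjusted p = 0.0466), CGN (-0.44, limma adjusted p = 0.0424), JUP (-0.72, limma adjusted p = 0.028), PKP3 (-0.46, limma adjusted p = 0.038) and PARD6B. JUP stood at 10.21, 11.04 and 10.52 at 3 h, between its 1 h and 6 h values and overlapping those of 1 h. Only PARD6B passed without control replicate 2 of 1 h (10.6% of all passed then), and in a fit of just the 6 arrays of both times 0 of the 29 passed, so that PARD6B failed as well (1.44% of all). PARD6B alone of the 5 had 3 h arrays that did not overlap those of 1 h. The count ran from 1 to 16 over the fits that left out 1 array. It was 16 without control replicate 1 of 1 h (36.2% of all), 1 without replicate 2 or 3 of that group or replicate 1 or 3 of the 3 h controls (6.25% to 10.6% of all), and 2 or 3 without any 1 of the aminaphtone 1 h arrays, aminaphtone replicate 1 of 3 h, aminaphtone replicate 2 of 6 h or control replicates 1 or 2 of 6 h (10.9% to 11.3% of all). With the replicate number as a block, TJP3 was added (-0.43, limma adjusted p = 0.0297; 14.5% of all passed). Between 3 and 6 h in controls 0 of 29 passed (0.513% of all in limma; 2, against 10% of all, at an unadjusted p under 0.05), with the smallest p for CLDN11 (-0.39), JUP (-0.46) and CDH2 (0.45), at limma adjusted p = 0.352, 0.45 and 0.51.

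The arrays of the later time did not overlap those of the earlier one for 16 of 29 genes at 6 h against 1 h under aminaphtone (46.5% of all) and for 15 in controls (30.7% of all). At 3 h against 1 h these were 12 under aminaphtone (32.3% of all) and 2 in controls (16.4% of all), and at 6 h against 3 h 8 under aminaphtone (20.3% of all) and 9 in controls (18.7% of all).

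**Figure D3:**
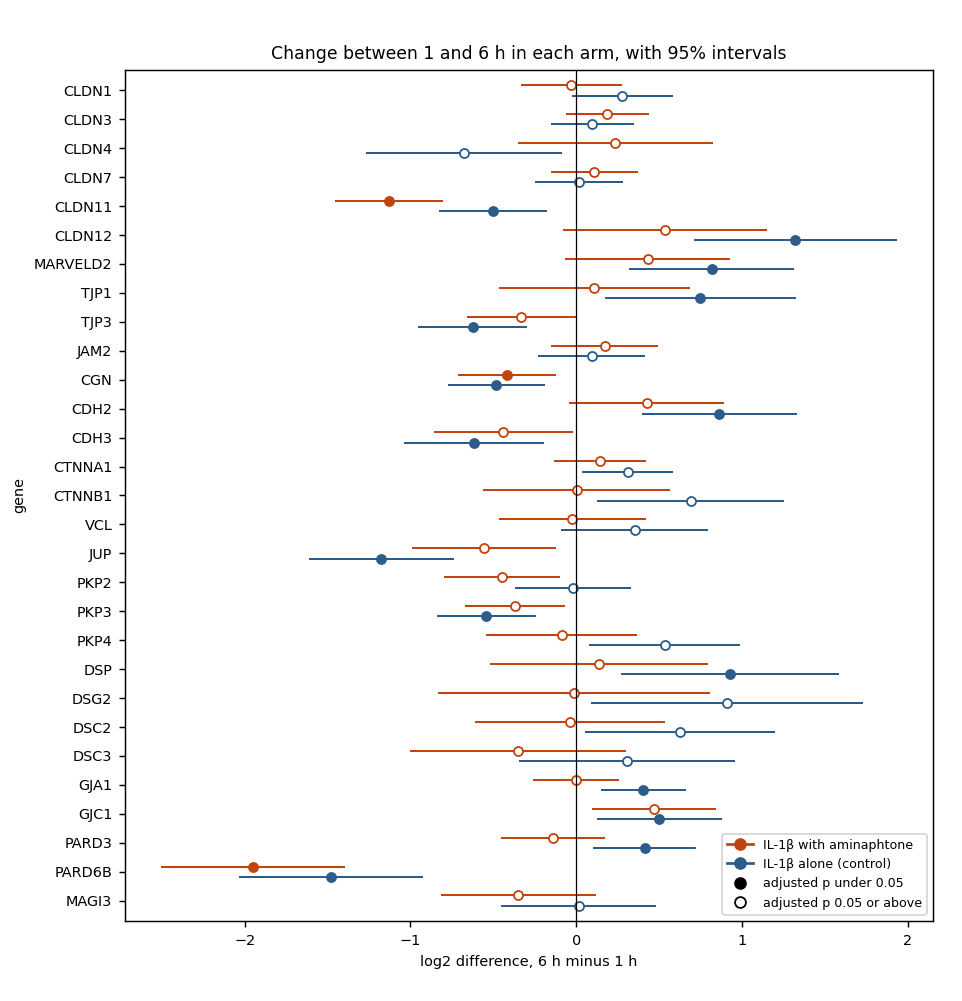
Log2 difference at 6 h minus 1 h of each junction gene tested, with 95% intervals, under aminaphtone and in controls. PARD6B, CLDN11 and CGN lie left of 0 in both treatments, while the control intervals of CLDN12 (1.32), CDH2 (0.86) and DSP (0.93) lie right of 0 and that of DSC3 crosses it.

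Aminaphtone itself was compared with control at each time. No junction gene passed at 1 h (0 of 29, 0.0886% of all), at 3 h (0 of 29, 0.038% of all), at 6 h (0 of 29, 0.108% of all) or over the 3 times averaged (0 of 29, 0.829% of all) in limma. At an unadjusted p under 0.05 the numbers were 11 at 1 h (30.8% of all), 1 at 3 h (6.5%), 2 at 6 h (3.93%) and 2 for the average (18.9%). The 95% intervals of the differences lay within 2-fold either way for 21 of the 29 genes at 1 h, 28 at 3 h, and all 29 at 6 h and for the average. The gene outside at 3 h was CLDN12, and the 8 outside at 1 h were CLDN4, CLDN12, TJP1, CTNNB1, DSP, DSG2, DSC2 and DSC3.

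At 1 h the smallest p belonged to CLDN4, PKP2 and PARD3. CLDN4, a barrier-tightening claudin adjacent to CLDN3 on chromosome 7, had 7.16, 7.42 and 7.86 with aminaphtone, against 7.89, 8.44 and 8.53 in controls, without overlap. Its difference was -0.81 (SE 0.28, limma adjusted p = 0.139), and at 3 and 6 h the groups overlapped, with differences of 0.17 and 0.11. PKP2 had 9.37, 9.09 and 9.09 with aminaphtone, against 9.002, 8.216 and 8.925 in controls, a difference of 0.47 (limma adjusted p = 0.139). PARD3, the PAR-3 scaffold, had 9.85, 9.81 and 9.87 with aminaphtone, against 9.72, 8.95 and 9.62 in controls, a difference of 0.41 (limma adjusted p = 0.139). Neither gene had overlapping groups, and in both the control replicate 2 was lowest. Without that array the differences were 0.22 for PKP2 and 0.17 for PARD3.

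The balance of signs at 1 h was not the same with and without that array. Over the 29 genes 20 differences were positive and 9 negative with a median of 0.33 (-0.10 over all transcript clusters tested), and without control replicate 2 of 1 h 15 were positive and 14 negative with a median of 0.03 (-0.03 over all). DSG2, the main desmoglein of simple epithelium, had 10.46, 10.33 and 10.22 with aminaphtone, against 10.51, 8.11 and 9.64 in controls, a difference of 0.92 (limma adjusted p = 0.146) and 0.26 without that array. CTNNB1 (β-catenin) had 11.66, 11.67 and 11.55, against 11.51, 9.94 and 11.32 in controls, a difference of 0.70 (limma adjusted p = 0.139) and 0.21 without it. For CLDN4 the difference was -0.73 without it.

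At 1 h, aminaphtone and control arrays that carry the same replicate number deviated together. The labels do not state this pairing. It was picked from these same deviations, and the blocked calls rest on that choice. The block was also set at 3 and 6 h, where same-numbered arrays did not all deviate together, and those arrays share in the spread. With the replicate number as a block 4 of the 29 genes passed (15.6% of all), 3 higher (10.9% of all) and 1 lower (4.75% of all). CLDN4 was lower (-0.81, SE 0.14, limma adjusted p = 0.0205), and CLDN12 (0.67, limma adjusted p = 0.0497), TJP1 (0.75, limma adjusted p = 0.0486) and PKP2 (0.47, limma adjusted p = 0.0449) were higher with aminaphtone. Without control replicate 1 of 1 h and without a block, 19 passed (53.9% of all), and without replicate 2, 0 passed (0.095% of all).

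At 3 h the smallest p belonged to CLDN11 (-0.37, limma adjusted p = 0.66), CTNNA1 (0.24) and GJA1 (-0.22), the last 2 at limma adjusted p = 0.822. CLDN11 did not overlap: 11.20, 11.10 and 10.68 with aminaphtone, against 11.43, 11.23 and 11.42 in controls. At 6 h the smallest p belonged to CLDN11 (-0.45) and GJA1 (-0.36), both at limma adjusted p = 0.787, and JAM2 (-0.17, limma adjusted p = 1.00). The 6 h arrays again did not overlap for CLDN11, with 10.55, 10.56 and 10.44 under aminaphtone against 10.95, 11.30 and 10.65 in controls, nor for GJA1, with 6.39, 6.37 and 6.66 under aminaphtone against 6.78, 6.76 and 6.96 in controls. In all, the groups did not overlap for 7 of 29 genes at 1 h (13.3% of all), 4 at 3 h (12.6%) and 4 at 6 h (16.1%). For the average over times GJA1 (-0.17, limma adjusted p = 0.213), CLDN11 (-0.21, limma adjusted p = 0.219) and TJP3 (-0.18, limma adjusted p = 0.27) came first. Without control replicate 2 of 1 h these were -0.16, -0.21 and -0.14 and 0 genes passed (1.24% of all), and 5 passed without control replicate 1 of 1 h (21.8% of all).

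**Figure D4:**
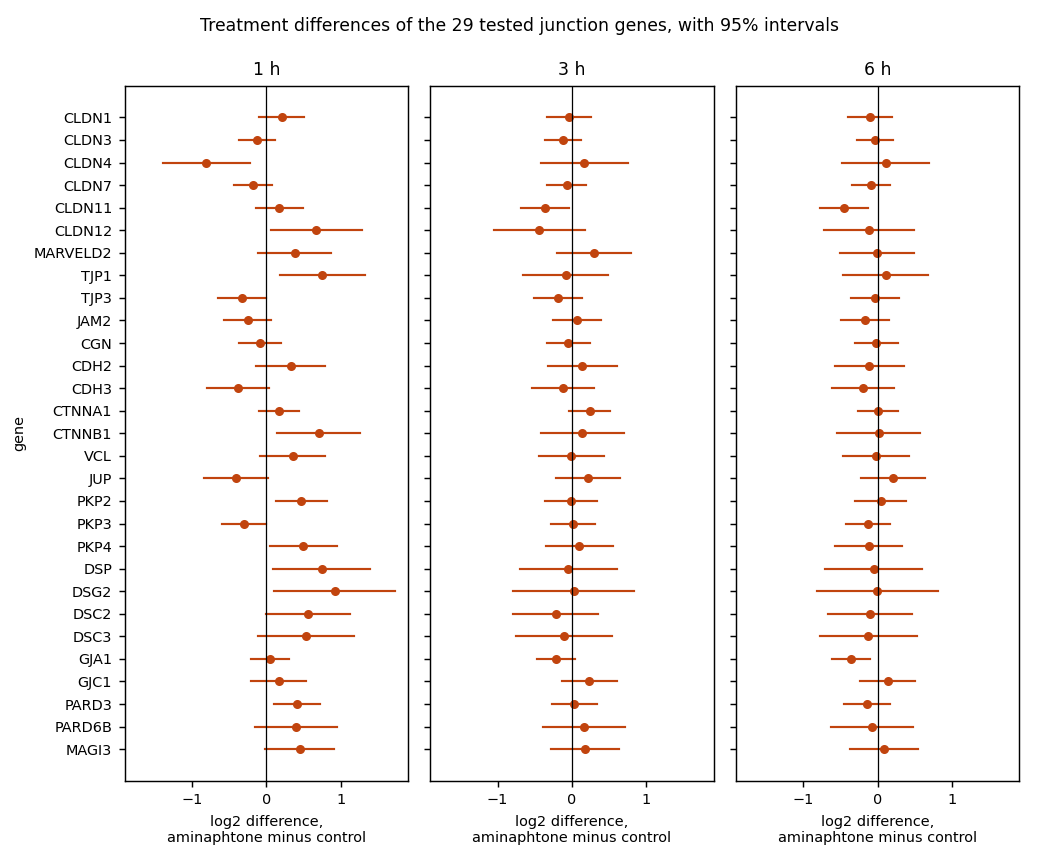
Log2 difference aminaphtone minus control of each junction gene tested, with 95% intervals, at 1, 3 and 6 h. Intervals at 1 h are centred mostly right of 0 (20 of 29 genes positive), those at 6 h mostly left of it (21 of 29 negative), and none passed the test over all transcript clusters. Of all transcript clusters tested, 40.3% were positive at 1 h and 46.2% at 6 h. Without control replicate 2 of 1 h, 15 junction genes were positive and 14 negative at 1 h.

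Whether the drug's effect differed between times was tested directly. None of the 29 genes passed for 3 h against 1 h (0.0127% of all), 6 h against 3 h (0.0127% of all) or 6 h against 1 h (0.0506% of all) in limma. At an unadjusted p under 0.05 there were 5 (14.1% of all), 0 (1.03%) and 5 (11.9%). The smallest p for 3 h against 1 h belonged to CLDN12 (-1.11), CLDN11 (-0.54) and CLDN4 (0.97), each at limma adjusted p = 0.329. For 6 h against 1 h they were CLDN11 (-0.63, limma adjusted p = 0.398), PARD3 (-0.55, limma adjusted p = 0.406) and GJA1 (-0.41, limma adjusted p = 0.41), and for 6 h against 3 h CTNNA1 (-0.23), JAM2 (-0.24) and MARVELD2 (-0.30), all at limma adjusted p = 1.00. Without control replicate 2 of 1 h no junction gene passed (0.0127% of all for 3 h against 1 h and 0.057% for 6 h against 1 h). For 3 h against 1 h the differences were then -0.86 for CLDN12, -0.54 for CLDN11 and 0.90 for CLDN4, and for 6 h against 1 h they were -0.63 for CLDN11, -0.32 for PARD3 and -0.45 for GJA1. Without control replicate 1 of 1 h 9 genes passed for 3 h against 1 h (25.1% of all) and 11 for 6 h against 1 h (21.4% of all).

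The remaining junction genes gave no call in any comparison of the fit to all 18 arrays. CLDN1, the claudin of epidermal and epithelial barriers, lay between 13.32 and 13.58 on 17 arrays and at 12.73 on control replicate 2 of 1 h. CLDN3 group means ran from 7.93 to 8.16, those of CLDN7 from 6.54 to 6.74 and those of JAM2 from 7.19 to 7.56. PKP4 (p0071) and MAGI3, a membrane-associated guanylate kinase scaffold, had group means of 9.48 to 10.01 and 7.91 to 8.57. JAM3 and GJB2, an epithelial connexin, under the filter, had group means of 6.06 to 6.25 and 6.03 to 6.25.

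Other genes of the same structures, from a separate list of 86 of which 51 were tested, included 9 that passed at 6 h against 1 h under aminaphtone (17.6% of the 51, against 16.7% of all transcript clusters; 2 rose and 7 fell) and 15 in controls (29.4% of the 51, against 26.5% of all; 5 rose and 10 fell). CDH5, the endothelial cadherin, was higher at 6 h by 0.59 under aminaphtone (limma adjusted p = 0.00332) and by 0.93 in controls (limma adjusted p = 7.47e-05), and ACTN1, an actin crosslinker of adhesion sites, by 0.57 and 0.56 (limma adjusted p = 0.00141 and 0.00128). AMOTL2, an angiomotin family scaffold, differed by -0.77 under aminaphtone and by -1.22 in controls (limma adjusted p = 0.00583 and 0.000155). PPL (periplakin), a cornified envelope and desmosome linker, differed by -1.19 under aminaphtone and -1.44 in controls (limma adjusted p = 0.000369 and 5.7e-05).

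In the aminaphtone arm CXADR, a tight junction immunoglobulin-like receptor, differed by -1.29 (limma adjusted p = 0.00615) and CTNNAL1, an α-catenin relative, by -0.79 (limma adjusted p = 0.00373) at 6 h against 1 h. In controls AFDN (afadin, the nectin linker) was higher by 1.07 and VEZT (vezatin) by 1.01, while LLGL2, a basolateral polarity protein, and PARD6A, a relative of PARD6B, differed by -0.83 each (limma adjusted p = 0.00876, 0.0145, 0.00156 and 0.00658). Without control replicate 2 of 1 h AFDN differed by 0.63, still past the test (limma adjusted p = 0.029), and VEZT by 0.73, which did not pass (limma adjusted p = 0.0788). LLGL2 and PARD6A then differed by -0.64 and -0.63 (limma adjusted p = 0.00588 and 0.0339). At 3 h against 1 h, 2 of the 51 rose and 2 fell under aminaphtone (7.84% of the 51, against 10.5% of all), and 2 rose and 5 fell in controls (13.7% of the 51, against 12.8% of all). One that fell was PARD6G (-0.60, limma adjusted p = 0.0285), which did not pass without control replicate 2 of 1 h (limma adjusted p = 0.121). For aminaphtone against control 0 of the 51 passed at 1, 3 or 6 h or on average, with 15, 2, 1 and 6 at an unadjusted p under 0.05 in limma (30.8%, 6.5%, 3.93% and 18.9% of all).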

How the data were processed

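Expression was measured in 18 ECV304 samples on Affymetrix Human Gene 1.0 ST arrays. The authors deposited log2 signals per transcript cluster, made with RMA in Affymetrix Expression Console per the submitters' processing notes; its version, the arrays normalized together and the annotation's genome build are not given in the sources used here, so array rows carry no coordinates. RMA's quantile step equalizes array distributions, so a shift of all genes would be lost. Precision is limited by the number of arrays, which have no read depth.

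Of 28869 transcript clusters, 21062 were annotated and 15796 had a mean above the 25th percentile and were tested. In limma 3.58.1 under R 4.3.3, 1 linear model took in the 18 arrays with a mean for each of the 6 groups (12 residual and 4.81 prior degrees of freedom). The 13 comparisons used two-sided moderated tests, the Benjamini-Hochberg adjustment over all 15796 rows and a threshold of 0.05. The calculation was tested on simulated data. Samples were grouped by the treatment and time in their titles.

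Replicate numbers were taken as pairs where the deviations of every same-numbered pair from the group means correlated: at 1 h between treatments (0.746, 0.411 and 0.322) and between controls at 3 and 1 h (0.313, 0.359 and 0.258). The labels do not state pairing. In every other pair of groups at least 1 same-numbered pair correlated negatively, down to -0.678 for replicate 1 of aminaphtone at 6 and 1 h.

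The genes, the lists and the settings were chosen with earlier results of these data known. In each comparison every junction gene past the threshold was named, or the 3 with the smallest p where none passed; other junction genes and regulators past it were named up to 4 per direction, and other members of the list described by their values. The 35 symbols matched RefSeq; promoters came from its GRCh38.p14 table. Alternatives were filters, variance model, arrays in the fit, normalization, replicate blocks, 1 value per gene, and leaving out each array.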

Additional observations from a re-analysis of the deposited data

How the results depend on the processing

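Fitted to only the arrays compared, the junction genes passing were 5 for aminaphtone 3 h against 1 h (2 in the fit of all arrays), 12 for aminaphtone 6 h against 1 h (3), 0 for control 3 h against 1 h (5) and 3 for control 6 h against 1 h (15). Of all transcript clusters 16.9%, 32.9%, 1.44% and 6.89% passed in these fits, in the same order. This setting could not be applied to the average. With a replicate block within each time, 4 passed at 1 h (15.6% of all). Over the fits that left out 1 array each, the counts ran from 0 to 19 for aminaphtone against control at 1 h, 0 to 5 for the average, 1 to 5 for aminaphtone 3 h against 1 h, 2 to 8 for aminaphtone 6 h against 1 h, 1 to 16 for control 3 h against 1 h, 0 to 2 for control 6 h against 3 h, 7 to 23 for control 6 h against 1 h, 0 to 9 for the effect at 3 h against 1 h and 0 to 11 for the effect at 6 h against 1 h. At the highest count of each range the shares of all transcript clusters passing were 53.9%, 21.8%, 16.7%, 25.4%, 36.2%, 1.96%, 44.8%, 25.1% and 21.4%, in the same order. The control 6 h against 1 h count was 23 without control replicate 1 of 1 h (44.8% of all), 9 without control replicate 1 of 6 h (19.6%) and 7 without its replicate 3 (16.4%). JAM2 at 6 h, aminaphtone minus control, was -0.17 with all arrays and between -0.32 and 0.0058 over the fits that left out 1 array, turning positive without control replicate 3 of 6 h. The cause was not tested. Of the named values, 30 lost their call with only the arrays compared, 3 with arrays centred on their medians, 3 with no filter, 2 with a trended and robust variance and 1 each with 1 value per gene and a block within each arm. Quantile normalization again and a block over all groups ended none of these calls. A stricter filter, at the median signal, kept 70 of the 86 named values and ended no call among them. It dropped genes of lower signal, among them CGN, GJA1, CDH3 and CDH5, so their calls were not retested under it. With a replicate block over all groups or within each arm the counts were 6 and 7 for control 3 h against 1 h, 16 and 17 for control 6 h against 1 h, and 4 and 4 for aminaphtone 6 h against 1 h. In the last, CGN failed with the block within each arm. Of all transcript clusters 14.5% passed for control 3 h against 1 h with the block over all groups. The other shares with these blocks are not given here. Outside 1 h between treatments and control 3 h against 1 h, the deviations of same-numbered arrays did not all correlate positively. In no comparison do the labels state pairing.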

Other observations

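Transcription regulators of junction genes were read from a list of 16, of which 13 were tested. At 6 h against 1 h 2 of 13 passed under aminaphtone (16.7% of all transcript clusters) and 3 in controls (26.5% of all). At 3 h against 1 h 1 passed under aminaphtone (10.5% of all) and 3 in controls (12.8% of all). SNAI1 (Snail, a repressor of cadherin and claudin genes) was lower at 6 h than at 1 h by a difference of -0.95 under aminaphtone and -1.14 in controls (limma adjusted p = 0.00757 and 0.00174), and in controls it differed by -1.25 at 3 h (limma adjusted p = 0.00175). ELF3, an epithelial ETS factor, differed by -0.36 under aminaphtone (limma adjusted p = 0.164) and -1.20 in controls (limma adjusted p = 0.000126) at 6 h against 1 h, and the difference between these changes did not pass (0.83, limma adjusted p = 0.398). KLF4, a barrier-associated Krüppel-like factor, was higher at 3 h than at 1 h by 1.21 under aminaphtone (limma adjusted p = 0.00114), against 0.40 in controls (limma adjusted p = 0.227), and that difference did not pass either (0.81, limma adjusted p = 0.329). ZEB2, a repressor related in function to SNAI1, was higher in controls at 6 h than at 1 h by 0.89 (limma adjusted p = 0.00909). Without control replicate 2 of 1 h ZEB2 was higher by 0.61 (limma adjusted p = 0.0467).

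Over the times averaged, 1 regulator of 13 passed for aminaphtone against control, when 0.829% of all transcript clusters passed. It was GRHL3 (a grainyhead-like factor of surface epithelium), lower by a difference of -0.32 (SE 0.06, limma adjusted p = 0.0239). It passed in 9 of the 18 fits that left out 1 array, with a highest adjusted p of 0.0742 without aminaphtone replicate 1 of 1 h.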
